A study of Mus musculus with 24 samples.

Results

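Interferon-stimulated genes are the genes that cells switch on when they sense an interferon. Their transcripts were followed here in whole liver of C57BL/6J mice fed a high-fat diet or its control diet. The set held 40 genes out of the 56205 gene IDs counted. They were listed by symbol as known interferon-stimulated genes. Each symbol matched 1 gene ID, and all 40 passed the filter on low counts, which asked for at least 1 count in at least 12 libraries. The high-fat diet (FFD) contained palm oil, fructose and cholesterol, and both groups stayed on their diet for 20 weeks from young adulthood. The labels give no deletion, transgene or drug in either group. Each diet had 12 libraries, numbered replicate 1 to replicate 12, from 6 mice per sex. The labels do not give the sex of a library. RNA came from the whole organ after poly(A) selection, so all liver cell types contributed to every value, and fewer cells of a type and less RNA per cell cannot be told apart.

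Interferons of type I and type III signal through receptors bound to the kinases Jak1 and Tyk2, which activate Stat2 among other factors. Stat2 and Irf9 are parts of a complex that binds the interferon-stimulated response element (ISRE) near the start of target genes. Type II interferon signals through Jak1 and Jak2 and acts on the gamma-activated site (GAS). The target genes encode sensors of foreign nucleic acid, enzymes that degrade or modify RNA, GTPases that attack intracellular pathogens, and feedback regulators of the pathway. In liver, hepatocytes, endothelial cells and macrophages all respond to interferon.

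The ISRE is the sequence through which these genes are known to be controlled, so its letters were looked up first. Promoter sequences, 250 bases before to 50 bases after the transcript start, came from RefSeq on build GRCm38.p6 and matched 29 of the 40 genes by symbol. Dhx58, Zbp1, Oas2, Mx1, Mx2, Iigp1, Usp18, Ifi27, Rtp4, Parp9 and Parp14 had no entry. The letters GAAANNGAAA, searched on both strands (TTTCNNTTTC on the other strand), were present in 18 of the 29 genes (62.1%) and in 3.99% of the 27025 genes with a promoter in the same table. The GAS letters TTCNNNGAA, which read the same on both strands, were present in 8 of the 29 (27.6%) and in 9.55% of all genes. In 2 of the 40 genes a match of one kind overlapped a match of the other. Shown here are the 120 bases before the start, 5′ to 3′ on the strand of the gene, for the genes called higher on the high-fat diet that held the ISRE letters there (Oas3, Gbp2 and Oas1a). For contrast, the same stretch is shown for Isg15, Ifit1 and Igtp, which held the letters and were not called. These were chosen after their values had been seen. Capitals mark every ISRE match, and overlapping ISRE matches run together, while GAS matches are left in lower case.
Oas3, chr5:120777660-120777779, minus strand: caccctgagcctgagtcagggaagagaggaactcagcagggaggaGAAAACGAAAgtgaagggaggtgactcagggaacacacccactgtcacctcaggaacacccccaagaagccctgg
Gbp2, chr3:142620543-142620662, plus strand: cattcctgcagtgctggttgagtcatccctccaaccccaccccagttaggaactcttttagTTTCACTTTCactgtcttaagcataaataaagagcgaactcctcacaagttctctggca
Oas1a, chr5:120907526-120907645, minus strand: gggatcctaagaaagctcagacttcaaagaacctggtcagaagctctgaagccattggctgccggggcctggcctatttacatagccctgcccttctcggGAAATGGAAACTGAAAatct
Isg15, chr4:156200819-156200938, minus strand: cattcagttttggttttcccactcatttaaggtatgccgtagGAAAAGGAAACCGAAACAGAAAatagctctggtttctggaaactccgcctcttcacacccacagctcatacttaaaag
Ifit1, chr19:34640769-34640888, plus strand: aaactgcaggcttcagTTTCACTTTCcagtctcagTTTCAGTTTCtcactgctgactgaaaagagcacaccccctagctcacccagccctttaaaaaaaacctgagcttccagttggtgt
Igtp, chr11:58199436-58199555, plus strand: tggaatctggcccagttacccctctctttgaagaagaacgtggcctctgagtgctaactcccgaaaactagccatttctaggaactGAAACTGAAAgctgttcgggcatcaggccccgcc
Isg15 held 3 overlapping matches beginning 78, 72 and 66 bases before its start, and Oas3 held 1, beginning 75 bases before its start. Among genes with a promoter entry, the letters were present in 3 of 6 called higher and in 15 of 23 not called higher. They were also present in 7 of 10 with a log2 fold change below 0. A match of letters is a description of the sequence, not a bound site.

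Levels are given in CPM, counts scaled to a common library total after TMM scaling, and differences as the log2 fold change of the high-fat diet over the control diet with its standard error (SE). A gene was called at an edgeR adjusted p of at most 0.01 and a log2 fold change beyond 0.5 in either direction. Of the 40 genes, 9 were called higher on the high-fat diet (22.5%), where 13.2% of all 17913 genes tested were called higher. Only Trim25 was called lower (2.5%), where 4.99% of all genes tested were. The median log2 fold change of the 40 genes was 0.26, against -0.03 for all genes tested, and the range was -0.58 to 1.54. At an unadjusted edgeR p under 0.05, 22 of the 40 genes passed (55.0%), against 47.8% of all genes. With TMM scaling 26 of the 40 genes lay above 0 and 14 below, where 47.2% of all genes tested lay above 0. With library totals alone, which moved the median of all genes to 0.26, 37 of the 40 lay above 0 and 3 below. All 9 genes called higher were above 0 under every scaling tried.

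**Figure D1:**
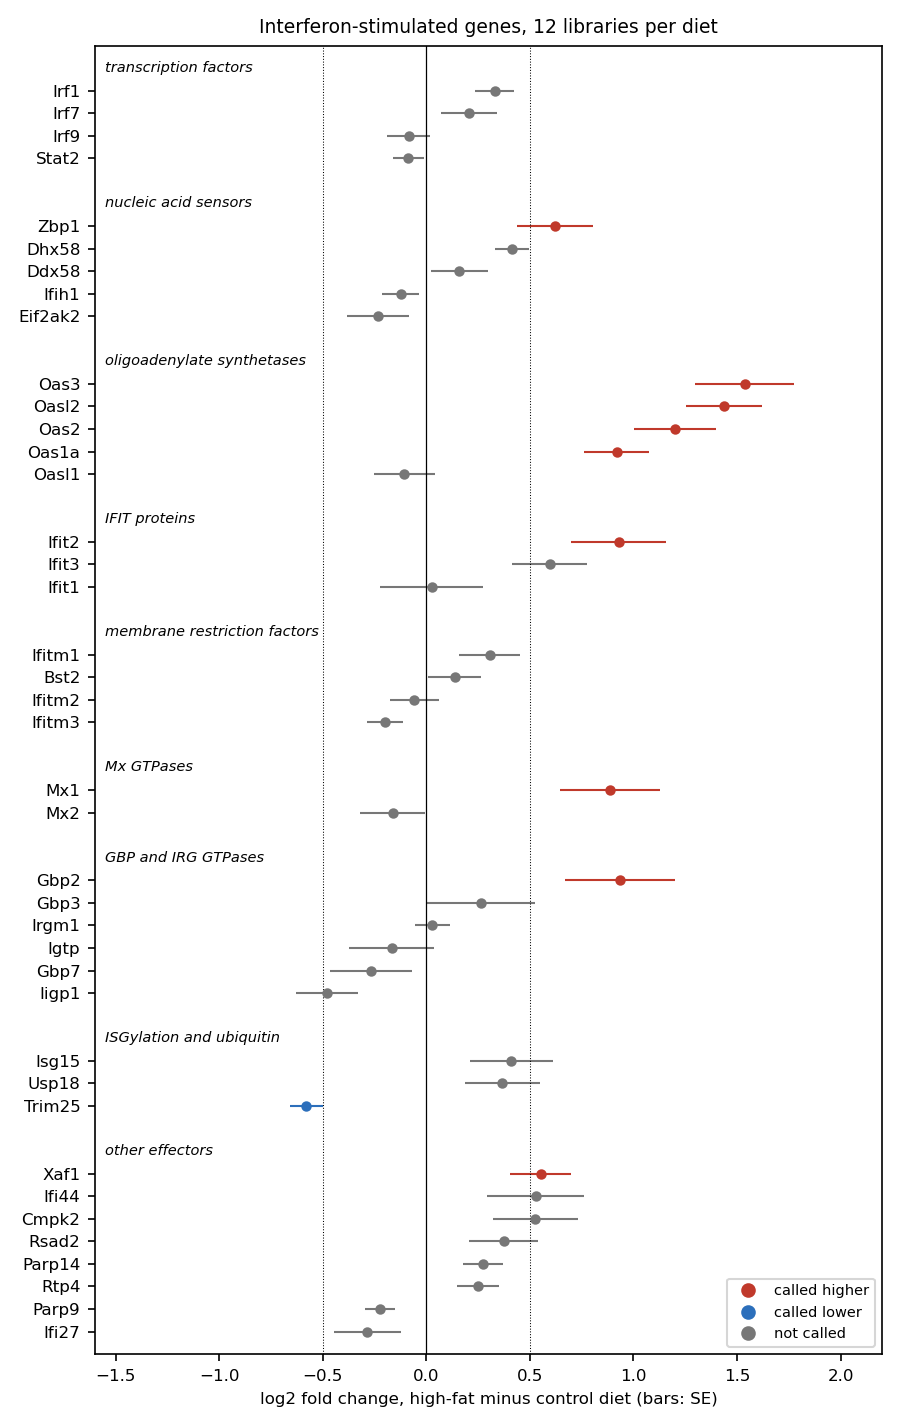
Log2 fold change (high-fat minus control diet, x axis) of the 40 genes grouped by role (y axis), with bars of 1 SE, from 12 libraries per diet. Dotted lines mark 0.5 in either direction. Among the 5 oligoadenylate synthetase genes, 4 lie between 0.92 and 1.54, and Trim25, at -0.58, is the gene called lower.

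Oligoadenylate synthetases gave the clearest difference. These enzymes, when bound to double-stranded RNA, make short oligoadenylates that activate the ribonuclease RNase L. Oas1a, Oas2, Oas3 and Oasl2 were called higher, 4 of the 5 family members listed, by 1.89-fold (Oas1a) to 2.90-fold (Oas3), and Oasl1 was not called. Oas3 (ENSMUSG00000032661) ranged from 3.54 to 6.42 CPM (median 4.49, n = 12) on the high-fat diet, against 0.461 to 2.72 CPM (median 1.51, n = 12) on the control diet. Every high-fat diet library was above every control library, which held for 1.48% of all genes tested. Its difference on the log2 scale was 1.54 (SE 0.24, edgeR adjusted p = 2.2e-05), and the lowest control library had 6 counts. Oas2 (ENSMUSG00000032690) had 7.72 to 12.4 CPM (median 10.4, n = 12) on the high-fat diet and 1.58 to 6.97 CPM (median 4.25, n = 12) on the control diet. Its groups did not overlap either, and Oas2 and Oas3 were the only ones of the 40 genes with every high-fat library above every control library. For Oas2 the log2 fold change was 1.20 (SE 0.20, edgeR adjusted p = 3.93e-05).

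Oasl2 (ENSMUSG00000029561), an OAS-like protein with a ubiquitin-like tail, had 8.961 to 23.5 CPM (median 12.3, n = 12) on the high-fat diet. In the control libraries it had 2.14 to 8.998 CPM (median 4.80, n = 12). A single pair of libraries crossed, since control replicate 6 lay just above high-fat replicate 4. On the log2 scale Oasl2 differed by 1.44 (SE 0.18, edgeR adjusted p = 2.55e-06). Oas1a (ENSMUSG00000052776) had 10.3 to 22.9 CPM (median 13.4, n = 12) on the high-fat diet and 5.03 to 12.6 CPM (median 7.35, n = 12) on the control diet, a log2 fold change of 0.92 (SE 0.16, edgeR adjusted p = 6.45e-05). Of its high-fat libraries, 7 lay above all control libraries. Of the 51-base words in Oas1a transcripts, 57.0% also occurred in transcripts of other genes, among them Oas1g and Oas1b, so how its reads were shared out is uncertain. Oasl1, which is known to restrain translation of Irf7, had 7.73 to 20.5 CPM on the high-fat diet and 7.69 to 20.0 CPM on the control diet, ranges that nearly coincide (log2 fold change -0.11, standard error 0.15, 0.20 with library totals alone).

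**Figure D2:**
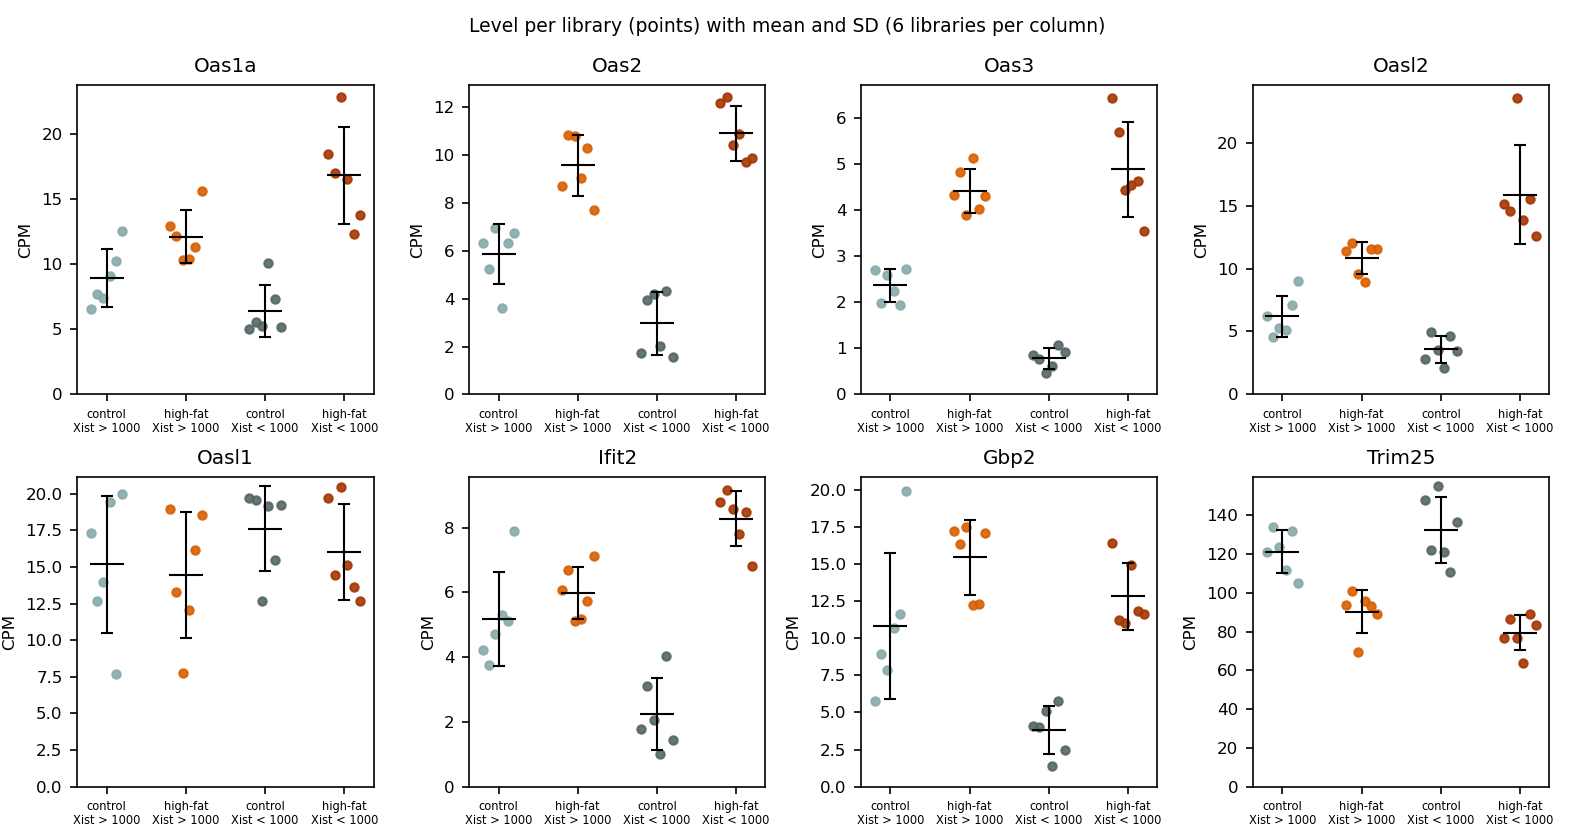
Level in CPM (y axis, from 0) of 8 genes in every library (points), with mean and SD (n = 6) by diet and by Xist counts above or below 1000 per library. Oas2 and Oas3 do not overlap between diets, Oasl1 overlaps throughout, and the control libraries with Xist below 1000 counts hold the lowest values of Oas3 (0.461 to 1.08 CPM).

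IFIT proteins bind viral RNA that lacks the host's cap methylation and block its translation. Ifit2 (ENSMUSG00000045932) was the 1 of 3 that was called. It ranged from 5.12 to 9.16 CPM (median 6.97, n = 12) on the high-fat diet, against 1.02 to 7.89 CPM (median 3.89, n = 12) on the control diet. Of the control libraries, 10 lay below all high-fat libraries, and control replicate 6 was the highest control library. Between diets the log2 fold change of Ifit2 came to 0.93 (SE 0.23, edgeR adjusted p = 0.00229). Ifit3 had a log2 fold change of 0.59 (SE 0.18) with an edgeR adjusted p of 0.0116, just outside the threshold of 0.01. It was called higher under 7 of the 9 alternatives with another fit, filter, scaling or set of libraries, with the exceptions of no filter (edgeR adjusted p = 0.0119) and of replicates 1 to 6 alone, those with Xist above 1000 counts (edgeR adjusted p = 0.335). Ifit3 was also called when control replicate 4, control replicate 6 or high-fat replicate 4 was left out. Of its 51-base words, 50.8% of its 51-base words also occurred in other transcripts, those of Ifit3b. Ifit1 had 4.74 to 16.1 CPM on the high-fat diet and 4.38 to 26.2 CPM on the control diet, with its highest value in control replicate 4. Its log2 fold change was 0.03 (SE 0.25), and without control replicate 4 it was 0.26.

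The Mx proteins are dynamin-like GTPases that trap viral nucleocapsids. C57BL/6 strains are known to carry a defective Mx1 allele that still gives a transcript. Mx1 (ENSMUSG00000000386) had 1.23 to 3.13 CPM (median 2.14, n = 12) on the high-fat diet and 0.27 to 2.12 CPM (median 1.13, n = 12) on the control diet. In 6 high-fat libraries the level was above all control libraries. Its log2 fold change was 0.89 (SE 0.24, edgeR adjusted p = 0.00517), from as few as 4 counts in a control library. Mx2 was not called (log2 fold change -0.16, standard error 0.16, 0.13 with library totals alone).

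Guanylate-binding proteins (GBP) and immunity-related GTPases (IRG) coat the vacuoles of intracellular pathogens and are known as targets of type II interferon above all. Of the 6 listed, only Gbp2 (ENSMUSG00000028270) was called. It had 11.03 to 17.48 CPM (median 13.6, n = 12) on the high-fat diet, a narrow range, and 1.43 to 19.9 CPM (median 5.79, n = 12) on the control diet, a wide one. The highest of all 24 libraries was control replicate 6, and 10 control libraries lay below all high-fat libraries. Its log2 fold change was 0.94 (SE 0.27, edgeR adjusted p = 0.00664). The call was lost when any of 10 libraries was left out (high-fat replicates 1, 3, 6 and 7 and control replicates 1, 7, 8, 9, 11 and 12), with an edgeR adjusted p of at most 0.0124. Leaving out control replicate 6 gave a value of 1.18. The other members of the group had log2 fold changes of 0.26 (Gbp3), 0.03 (Irgm1), -0.17 (Igtp, 0.07 with library totals alone), -0.27 (Gbp7) and -0.48 (Iigp1), and none of them was called. Iigp1 came closest, with an edgeR adjusted p of 0.013, and was called lower when high-fat replicate 1, high-fat replicate 5 or control replicate 10 was left out. Transcripts of Igtp shared 11.6% of their 51-base words with Irgm2, and Gbp7 shared 12.7% with other genes, Gbp3 included.

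Sensors of nucleic acid detect viral or misplaced host RNA and DNA and feed back into interferon production. Zbp1 (ENSMUSG00000027514), a sensor of Z-form nucleic acid that can start necroptosis, was the 1 of 5 that was called. Its level was 8.92 to 16.8 CPM (median 10.99, n = 12) on the high-fat diet and 3.22 to 14.8 CPM (median 7.45, n = 12) on the control diet. A group of 9 control libraries was below all high-fat libraries, and replicate 6 was the highest on both diets. The log2 fold change of 0.62 (SE 0.18, edgeR adjusted p = 0.00873) lay close to the threshold. It was lost on leaving out any of 14 libraries (high-fat replicates 1, 3, 4, 5, 6 and 9 and control replicates 1, 2, 5, 7, 8, 9, 10 and 11), with an edgeR adjusted p of at most 0.0182. Dhx58, which encodes the regulator LGP2 of the RNA sensors, had a log2 fold change of 0.41 (SE 0.08). Its edgeR adjusted p of 0.000329 passed, but the difference was smaller than the fold change threshold. The RNA sensors Ddx58 (RIG-I) and Ifih1 (MDA5) had log2 fold changes of 0.16 and -0.12 (0.14 for Ifih1 with library totals alone). For the kinase Eif2ak2 (PKR), which stops translation when it binds double-stranded RNA, the value was -0.23 (0.03 with library totals alone). None of these 3 was called.

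Transcription factors of the response gave no call. Irf1 (ENSMUSG00000018899), a factor that itself drives many of the other genes, had the smallest adjusted p of the 4. It ranged from 37.6 to 54.3 CPM (median 43.2, n = 12) on the high-fat diet, against 22.7 to 49.8 CPM (median 34.2, n = 12) on the control diet. All high-fat libraries were above 9 of the control libraries. The log2 fold change of 0.33 (SE 0.09, edgeR adjusted p = 0.00683) was under the fold change threshold. Irf7, the amplifier of type I interferon production, had a log2 fold change of 0.21 (SE 0.13). Irf9 and Stat2, parts of the ISRE-binding complex, had log2 fold changes of -0.09 each (SE 0.10 and 0.08), which became 0.18 and 0.19 with library totals alone.

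The membrane restriction factors gave no call either. Interferon-induced transmembrane proteins hinder the entry of enveloped viruses, and Bst2 (tetherin) holds budding virions at the cell surface. Ifitm3 (ENSMUSG00000025492) had 258 to 370 CPM (median 295, n = 12) on the high-fat diet and 287 to 529 CPM (median 326, n = 12) on the control diet, with its highest value in control replicate 10. Its log2 fold change was -0.20 (SE 0.09, edgeR adjusted p = 0.0695), and 0.10 with library totals alone. Ifitm1, Bst2 and Ifitm2 had log2 fold changes of 0.31, 0.14 and -0.06 (0.24 for Ifitm2 with library totals alone). Ifitm2, Ifitm3 and Bst2 had their highest control value in control replicate 10, the library with the lowest TMM factor (0.679, where the other 23 libraries lay higher). The part of that scaling in these values was not tested. Without that library, the log2 fold changes of Ifitm2, Ifitm3 and Bst2 were 0.01, -0.13 and 0.28, and none of them was called, Bst2 with an edgeR adjusted p of 0.00586 but a difference under the fold change threshold. Of the 51-base words of Ifitm2, 48.3% occurred in other transcripts.

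ISG15 is a ubiquitin-like protein that is attached to other proteins in the interferon response, Usp18 removes it and also shuts off the type I receptor, and Trim25 is a ubiquitin ligase that activates RIG-I. Trim25 (ENSMUSG00000000275) was the 1 gene of the 40 that was called lower. It had 64.0 to 101 CPM (median 87.8, n = 12) on the high-fat diet and 105 to 155 CPM (median 123, n = 12) on the control diet. Every high-fat library was below every control library, as for 0.402% of all genes tested. For Trim25 the value was a log2 fold change of -0.58 (SE 0.08, edgeR adjusted p = 5.87e-06), and with library totals alone it was -0.29 and not called. Isg15, the gene after which the response is often scored, had 7.93 to 14.5 CPM on the high-fat diet and 4.32 to 20.1 CPM on the control diet. Of its control libraries, 8 were below all high-fat libraries, yet control replicate 4 was the highest of the 24. Isg15 had a log2 fold change of 0.41 (SE 0.20, edgeR adjusted p = 0.106), and without control replicate 4 it was 0.60 and called (edgeR adjusted p = 0.00581). Usp18 had a log2 fold change of 0.37 (SE 0.18, edgeR adjusted p = 0.111).

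Of the 8 remaining effectors, Xaf1 was called. Xaf1 (ENSMUSG00000040483), which promotes apoptosis by opposing an inhibitor of caspases, had 4.05 to 5.92 CPM (median 4.74, n = 12) on the high-fat diet and 2.21 to 6.37 CPM (median 2.90, n = 12) on the control diet. All high-fat libraries were above 10 of the control libraries, and control replicate 6 was above them all. Xaf1 differed by 0.55 on the log2 scale (SE 0.15, edgeR adjusted p = 0.00388). Cmpk2 and Rsad2 (viperin) are neighbouring genes whose products make a chain-terminating nucleotide, and they had log2 fold changes of 0.53 (edgeR adjusted p = 0.0432) and 0.37 (edgeR adjusted p = 0.0761). Without control replicate 4, Cmpk2 was called (log2 fold change 0.69, edgeR adjusted p = 0.00439). Ifi44, Rtp4 and Ifi27 had log2 fold changes of 0.53, 0.25 and -0.29 (0.07 for Ifi27 with library totals alone and -0.10 without control replicate 10). Parp14 and Parp9, partners in ADP-ribosylation, lay on opposite sides of 0, at 0.27 and -0.22 (0.06 for Parp9 with library totals alone), and neither was called.

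Variation among control libraries was wide for many of these genes. The SD of log2(CPM + 1) was larger in the control libraries than in the high-fat libraries for 36 of the 40 genes, and for 64.4% of all genes tested. Control replicates 4 and 6 held the highest control value of 27 of the 40 genes, 12 in replicate 4 and 15 in replicate 6. Replicate 6 also had the highest summed markers of leukocytes (171 CPM), resident macrophages (468 CPM), monocyte-derived macrophages (16.7 CPM) and T cells (9.18 CPM) of the control libraries. Replicate 4 had the highest B cell sum (10.4 CPM). From the highest of the 12 control libraries, it ranked 2 for resident macrophages, 5 for leukocytes and monocyte-derived macrophages and 10 for T cells. At the other end, control replicate 10 was the lowest control library for 16 of the 40 genes. It had the lowest leukocyte (106 CPM), monocyte-derived macrophage (3.67 CPM) and B cell (2.55 CPM) sums of the control libraries. From the highest of these 12, its neutrophil sum ranked 3 and its resident macrophage sum 7. That library also had the fewest counts (14468418) and the lowest TMM factor (0.679) of all 24. On the high-fat diet, replicate 3 held the highest value of 10 genes and the lowest of 8. Its neutrophil markers summed to 158 CPM, against 1.42 to 3.91 CPM in the other 11 high-fat libraries. Replicate 9 held the highest value of 8 genes and the lowest of 7, with the highest monocyte-derived macrophage sum (93.6 CPM) and the lowest hepatocyte sum (33748 CPM). It also had the highest T cell (7.91 CPM) and plasmacytoid dendritic cell (2.11 CPM) sums of the high-fat libraries. Its resident macrophage (170 CPM) and sinusoidal endothelial (118 CPM) sums were the lowest of these libraries. How often each of these libraries was the highest or lowest among all genes tested was not computed. The part of these cell markers in the values was not tested.

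**Figure D3:**
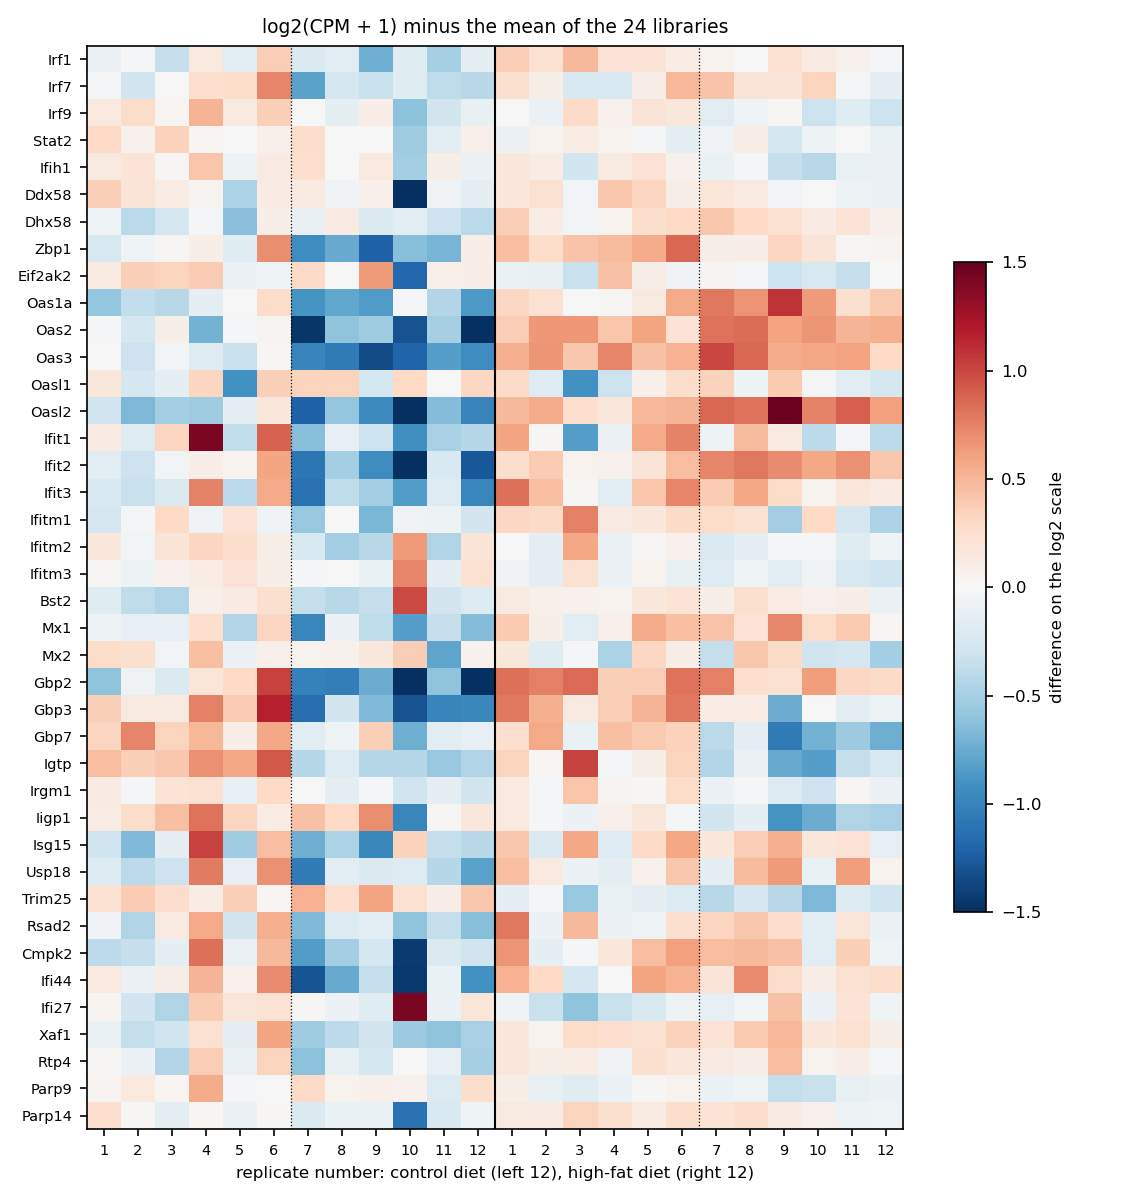
Level of the 40 genes (y axis) in each of the 24 libraries (x axis, replicates 1 to 12 of the control diet, then of the high-fat diet), as log2(CPM + 1) minus the mean of that gene over the 24 libraries. Dotted lines divide the libraries with Xist above 1000 counts (replicates 1 to 6) from those below. Control replicates 4 and 6 stand out as high, and control replicate 10 as low for 16 genes and high for Bst2, Ifi27, Ifitm2 and Ifitm3.

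Leukocyte and monocyte-derived macrophage markers moved with the diet. All 5 leukocyte markers were called higher, and their sum was 214 to 376 CPM on the high-fat diet and 106 to 171 CPM on the control diet. The 5 monocyte-derived macrophage markers were likewise all called higher, with sums of 28.8 to 93.6 CPM and 3.67 to 16.7 CPM. Neither range overlapped between diets. Of the hepatocyte markers, 4 of 5 were called lower, with sums of 33748 to 85702 CPM on the high-fat diet and 74413 to 122781 CPM on the control diet, so the tissue was liver by its markers on both diets. Plasmacytoid dendritic cells, known as strong producers of type I interferon, had marker sums of 0.697 to 2.11 CPM and 0.263 to 1.64 CPM, and none of their 5 markers was called. T cell markers gave 0 calls of 6, B cell markers 0 of 5, natural killer cell markers 1 of 4 tested, neutrophil markers 3 of 4 tested, resident macrophage markers 1 of 5, sinusoidal endothelial markers 1 of 5 and stellate cell markers 3 of 5, all of these calls higher. The 3 called neutrophil markers were highest in high-fat replicate 3 (S100a8 66.2 CPM there, against a high-fat median of 0.990 CPM). None of them was called in replicates 1 to 6 alone, and S100a8 and S100a9 were called in replicates 7 to 12 alone. Of the resident macrophage markers, Cd5l was called (log2 fold change 1.69), and Timd4 was the 1 of 5 below 0 (-0.74). The part of any of these cells in the differences of the 40 genes was not tested.

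The libraries also fell into 2 sets that the diet does not explain. Replicates 1 to 6 of both diets had 2664 to 6285 counts of Xist, a transcript of the X chromosome, and 0 counts of the Y-linked Ddx3y. The libraries numbered 7 to 12 held at most 3 counts of Xist, and 448 to 1016 of Ddx3y. The labels name no such sets. By these 2 transcripts the sets match the 2 sexes of the study, which had 6 mice per diet and sex. The labels do not give the sex of a library, so this rests on the 2 transcripts alone. Each set holds 6 libraries per diet, so the diet was also compared within each.

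More of the 40 genes, and also more of all genes tested, were called in the libraries with Xist below 1000 counts. There, 16 of the 40 genes were called higher (14.4% of all genes tested) and 1, Trim25, lower (7.99% of all genes). In the libraries with Xist above 1000 counts, 3 were called higher (2.9% of all genes) and 0 lower (0.882% of all genes), the 3 being Oas2, Oas3 and Oasl2. The median log2 fold change of the 40 genes was 0.42 in the set with low Xist and 0.08 in the set with high Xist. A test of the difference itself, the diet by set interaction, reached an edgeR adjusted p of at most 0.05 for 8 of the 40 genes (20.0%), against 10.2% of all genes tested, and for all 8 the log2 fold change was larger where Xist was low. They were Oas1a, Oas2, Oas3, Oasl2, Ifit2, Gbp2, Ifi44 and Irf7. How many of all genes with such an interaction had the same direction was not computed.

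For Ifit2, the mean level where Xist was low was 8.27 ± 0.840 CPM (SD, n = 6) for the high-fat diet and 2.24 ± 1.12 CPM (SD, n = 6) for the control diet. Where Xist was high, it was 5.99 ± 0.807 CPM (SD, n = 6) and 5.17 ± 1.45 CPM (SD, n = 6). The diets did not overlap in the first set and overlapped in the second. The share of all genes without overlap between diets within a set was not computed. Oas3 had 4.88 ± 1.02 CPM and 0.783 ± 0.222 CPM (SD, n = 6 each) where Xist was low, and 4.42 ± 0.475 CPM and 2.36 ± 0.358 CPM (SD, n = 6 each) where it was high. Its high-fat levels were close in both sets, and its control levels were not. Gbp2 had 12.8 ± 2.25 CPM and 3.82 ± 1.62 CPM (SD, n = 6 each) where Xist was low, and 15.4 ± 2.51 CPM and 10.8 ± 4.92 CPM (SD, n = 6 each) where it was high. All 8 genes with a called interaction had a higher mean control level in the libraries with high Xist, as did 34 of all 40 (85.0%). The control levels enter the interaction itself, so the 8 of 8 is not a separate result. On the high-fat diet, 27 of the 40 genes (67.5%) had the higher mean where Xist was high. The shares of all genes for these counts were not computed. In the control libraries, Ifi44, Gbp3, Gbp2, Oas3 and Igtp had every value with high Xist above every value with low Xist, 5 of 40 genes where 2.78% of all genes tested did, and none of the 40 did the reverse. In the high-fat libraries this order held for Gbp3, Gbp7, Iigp1 and Igtp, 4 of 40 genes against 5.82% of all genes, and the reverse order held for Oasl2 (4.71% of all genes).

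**Figure D4:**
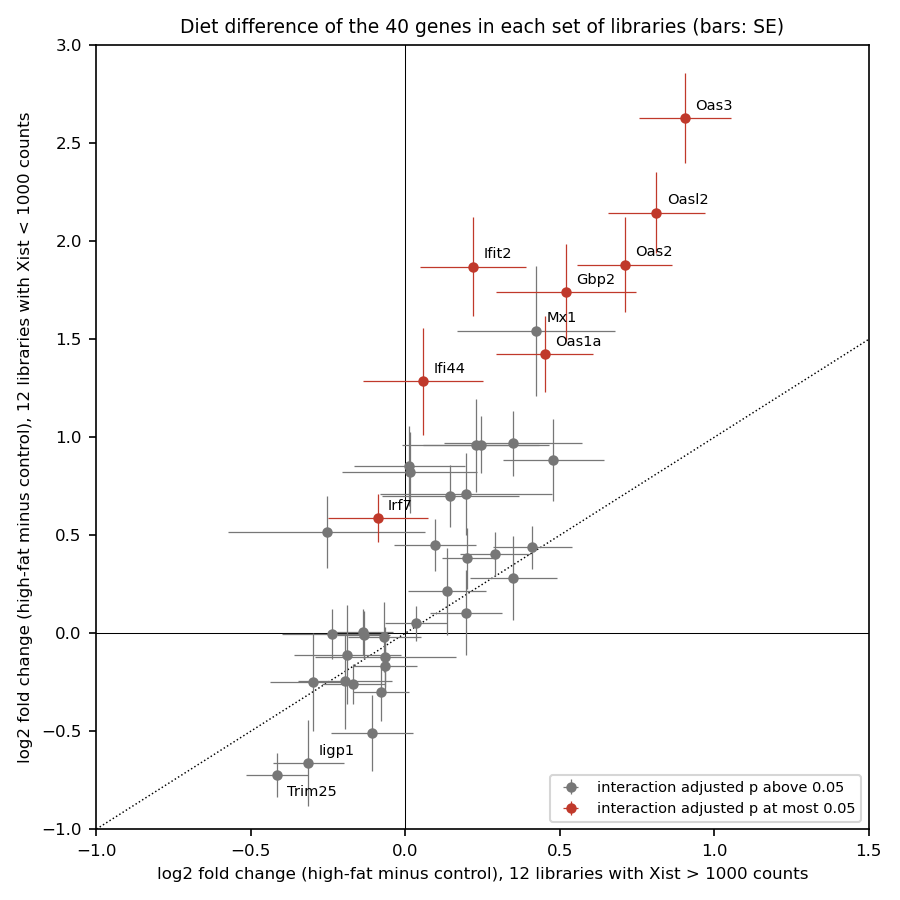
Log2 fold change (high-fat minus control diet) of the 40 genes within the 12 libraries with Xist above 1000 counts (x axis) and within the 12 below (y axis), with bars of 1 SE. The dotted line marks equal values. The 8 genes in red, with an interaction adjusted p of at most 0.05, all lie above the line, and Oas3 lies at 0.91 and 2.63.

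Cell markers also differed between the sets. The monocyte-derived macrophage sum on the high-fat diet was 52.8 to 93.6 CPM where Xist was low and 28.8 to 43.5 CPM where it was high, without overlap, and the control ranges were 3.67 to 14.9 CPM and 5.30 to 16.7 CPM. Resident macrophage markers of the control libraries summed to 109 to 201 CPM where Xist was low and 244 to 468 CPM where it was high, again without overlap. Natural killer cell sums there were 0.0658 to 0.403 and 0.415 to 1.70 CPM, and sinusoidal endothelial sums 113 to 184 and 189 to 247 CPM. Of the leukocyte markers, Ptprc, Coro1a, Laptm5 and Cd53 had lower control means where Xist was low (Ptprc 5.80 against 13.2 CPM). Lcp1 had a higher one (90.9 against 69.9 CPM), and the control leukocyte sums overlapped. Hepatocyte markers on the high-fat diet summed to 33748 to 43923 CPM where Xist was low and 62707 to 85702 CPM where it was high. Leukocyte sums on that diet were 251 to 376 and 214 to 243 CPM, and stellate cell sums 426 to 575 and 271 to 399 CPM. The part of these cells in the interactions was not tested.

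The genes upstream of the 40 were examined from a list of 33 pathway genes, 23 of which were tested. Of the 23, 10 were called higher (43.5%) and 0 lower, against 13.2% and 4.99% of all genes tested. At an unadjusted edgeR p under 0.05, 15 of the 23 passed (65.2%, against 47.8% of all genes tested). The 10 genes for interferons themselves had too few counts to be tested. Ifna1, Ifna2, Ifna5, Ifnb1, Ifne, Ifnl2 and Ifnl3 had 0 counts in all 24 libraries, Ifna4 had at most 1, Ifnk at most 3, and Ifng, the type II interferon, had at most 5 counts on the high-fat diet and at most 1 on the control diet. A count of 0 allows up to 3 counts, which equal 0.118 to 0.305 CPM in these libraries, so a level up to that remains possible for the genes at 0.

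Of the 6 receptor genes, 4 were called higher. Ifnar1 and Ifnar2, the 2 chains of the type I receptor, had log2 fold changes of -0.09 and -0.04 (SE 0.06 each) and were not called. Ifngr1 and Ifngr2, the chains of the type II receptor, were called higher. Ifngr1 had 26.2 to 49.4 CPM (median 33.5, n = 12) on the high-fat diet and 14.8 to 32.7 CPM (median 20.8, n = 12) on the control diet, a log2 fold change of 0.66 (SE 0.14, edgeR adjusted p = 0.00044). Ifngr2 had a log2 fold change of 0.71 (SE 0.10, edgeR adjusted p = 1.28e-05). Il10rb, a chain shared by the receptors for type III interferon and interleukin 10, was called higher with 1.23 (SE 0.20, edgeR adjusted p = 3.52e-05). Its partner chain Ifnlr1 was called higher with 2.01 (SE 0.53, edgeR adjusted p = 0.00398), from libraries with 0 to 36 counts on the high-fat diet, against 0 to 5 on the control diet.

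Below the receptors, none of Jak1, Jak2, Tyk2 and Stat3 was called, with log2 fold changes of -0.13, 0.03, 0.15 and -0.14. Among inhibitors, Socs1, a feedback inhibitor of the Jak kinases, was called higher with a log2 fold change of 1.07 (SE 0.26, edgeR adjusted p = 0.00209), from at most 28 counts per library. Ptpn6, a phosphatase of blood cells, was also called higher with 0.54 (SE 0.11, edgeR adjusted p = 0.000426). Socs3, Pias1 and Ptpn2 were not called.

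The genes that lead to interferon production held 4 further calls among 8. Sting1, the adaptor that passes on the signal of cytosolic DNA, had 3.18 to 11.5 CPM (median 5.59, n = 12) on the high-fat diet and 0.916 to 3.17 CPM (median 2.15, n = 12) on the control diet. No libraries overlapped between diets, and the log2 fold change of Sting1 was 1.50 (SE 0.21, edgeR adjusted p = 8.01e-06). Cgas, the DNA sensor upstream of it, was called higher with 1.32 (SE 0.29, edgeR adjusted p = 0.00087), from libraries with 6 to 18 counts on the high-fat diet, against 1 to 10 on the control diet. Irf8, a factor of the myeloid lineage, had a log2 fold change of 1.23 (edgeR adjusted p = 1.26e-05) and the kinase Ikbke 0.75 (edgeR adjusted p = 1.9e-05). Irf5, Tbk1, Mavs and Irf3 had log2 fold changes of 0.55, -0.20, -0.33 and -0.36 and were not called, Irf3 with an edgeR adjusted p of 0.00145 but a difference under the fold change threshold. Sting1, Irf8, Ifngr1, Il10rb and Ptpn6 had an interaction with the set of libraries at an edgeR adjusted p of at most 0.05, each with the larger log2 fold change where Xist was low. These were 5 of 23 (21.7%), against 10.2% of all genes tested, and the direction among all genes with an interaction was not computed.

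**Figure D5:**
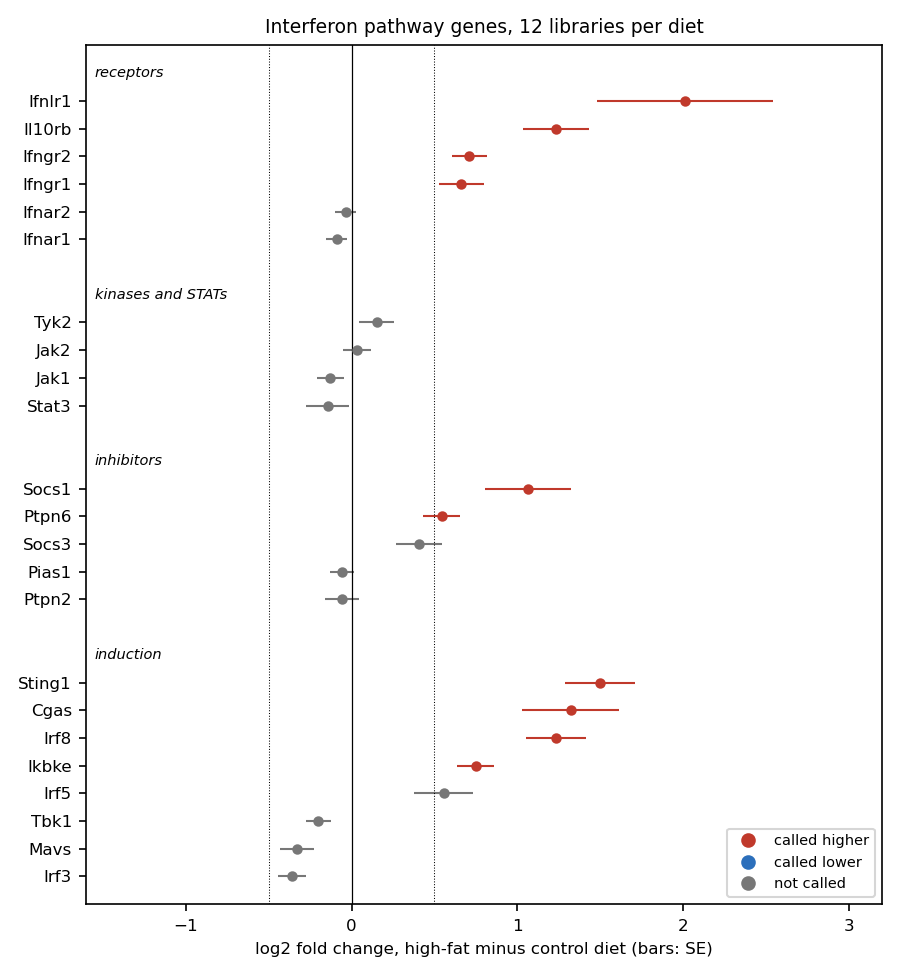
Log2 fold change (high-fat minus control diet, x axis) of the 23 tested pathway genes by role (y axis), with bars of 1 SE. The 10 genes called higher run from 0.54 for Ptpn6 to 2.01 for Ifnlr1, and the genes of the type I receptor, Ifnar1 and Ifnar2, lie near 0.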

How the data were processed

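Poly(A)-selected RNA of 24 whole livers was sequenced. Raw counts per gene for 56205 Ensembl IDs were deposited by the authors in 1 table, not normalized. The submitters' processing notes name bcl2fastq, STAR 2.7.3a and mm10, and the counting program and annotation are not given in the sources used here. Symbols came from GENCODE M21 (51745 IDs matched). Sting1 was matched as Tmem173.

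Totals per library ran from 14468418 to 22112552 counts. No 2 libraries of a diet agreed within sampling noise (lowest chi-square per degree of freedom 9.48). The labels do not tie a library to an animal by name, so p-values measure the spread between libraries.

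edgeR 4.0.16 in R 4.3.3 (TMM, quasi-likelihood F test, diet as the only term) was fitted to 17913 genes that passed the filter of 1 count in 12 libraries, with Benjamini-Hochberg adjustment over all of them. Each SE was taken as the size of the log2 fold change over the root of F. Calls needed an adjusted p of at most 0.01 and a log2 fold change beyond 0.5. On simulated counts for this comparison, over 17913 genes, 93% of 200 changed genes were recovered and 1 unchanged gene was called. Those 200 genes had a mean above 1 CPM and a log2 change of at least 1 in either direction. Smaller changes and sets of libraries were not simulated, so the share does not apply to genes near the 0.5 threshold. Alternatives were DESeq2 1.42.0, its size factors, library totals alone, no filter, filterByExpr, the replicate block, the set of libraries as a covariate or each set alone, another threshold, and each library left out.

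The 40 genes, the pathway and marker lists, the tests and the alternatives, including the split by Xist, were chosen with earlier results of these data known. Every one of the 40 and all pathway genes were to be named. A further pathway gene, beyond the 33 listed, is not reported here. Values per diet were to be given in full for each called gene and, in roles without a call, for the gene with the smallest adjusted p. Replicate numbers were not taken as pairs. Deviations from the diet means of same-numbered libraries correlated at -0.09 to 0.60, and 2 of 12 high-fat libraries correlated best with their own number. Promoter matches used Python 3.11.15. Shared words of 51 bases were counted in GENCODE M21 transcripts.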

Additional observations from a re-analysis of the deposited data

Results flagged for a closer look

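In 8 of the 40 genes the diet effect differed between the 2 sets of libraries, by the test of the diet by set interaction (edgeR adjusted p of at most 0.05). The value is the log2 fold change where Xist was below 1000 counts minus that where it was above. For the oligoadenylate synthetases it was 1.72 (Oas3, edgeR adjusted p = 0.00015), 1.32 (Oasl2, edgeR adjusted p = 0.00191), 1.16 (Oas2, edgeR adjusted p = 0.011) and 0.97 (Oas1a, edgeR adjusted p = 0.0164). Ifit2 had 1.64 (edgeR adjusted p = 0.00125), Ifi44 1.22 (edgeR adjusted p = 0.023) and Gbp2 1.202 (edgeR adjusted p = 0.0286). For Irf7 it was 0.67 (edgeR adjusted p = 0.0469), the weakest of the 8. Mx1 had a value of similar size, 1.11, that did not pass (edgeR adjusted p = 0.0944).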

How the results depend on the processing

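The count of members called higher, 9 as reported, was 18 with library totals alone, 3 within the libraries with Xist above 1000 counts, 16 within those below, 14 at a looser threshold (adjusted p up to 0.05, any fold change), and 7 to 12 with 1 library left out. The count called lower, 1 as reported, was 0, 0 and 1 in the first 3 of these, 3 at the looser threshold, 2 with the set as a covariate (Iigp1 and Trim25), and 1 to 2 with 1 library left out. Among all genes tested, the share called higher was 13.2% as reported, 21.4% with library totals alone and 20.7% at the looser threshold. It was 2.9% with Xist above 1000 counts, 14.4% with Xist below, and 12.2% to 13.8% with 1 library left out. The share called lower was 4.99% as reported, 1.26% with library totals alone and 18.9% at the looser threshold. It was 0.882% and 7.99% in these 2 sets, 5.92% with the set as a covariate, and 3.91% to 5.55% without 1 library. Of the pathway genes, 10 higher and 0 lower as reported, 3 were higher with Xist above 1000 counts, 1 was lower with Xist below, 3 were lower at the looser threshold, and 9 to 11 were higher with 1 library left out.
Library totals alone turned Irf9 (0.18), Stat2 (0.19), Ifih1 (0.14), Eif2ak2 (0.033), Oasl1 (0.20), Ifitm2 (0.24), Ifitm3 (0.10), Mx2 (0.13), Igtp (0.066), Ifi27 (0.072) and Parp9 (0.063) to above 0, and moved the median of all genes to 0.26 and that of the 40 genes to 0.51. Within the libraries with Xist above 1000 counts Irf7 (-0.090) and Ifit1 (-0.25) turned to below 0, and Irf9 to above 0 (0.0062) within those below. With 1 library left out, Ifit1 ran from -0.054 to 0.26, Ifitm2 from -0.12 to 0.0095 and Irgm1 from -0.014 to 0.071. With the replicate block, the same 9 genes and Ifit3 were called higher and Trim25 lower. Oas2, Oas3 and Oasl2 were called higher under all 9 alternatives with another fit, filter or scaling and in all 24 fits without 1 library. Depth limits Oas3, Mx1, Ifnlr1, Socs1, Cgas and Sting1, which had under 10 counts in some control libraries. The causes of these shifts were not tested.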
